A study of Homo sapiens with 16 samples.

Results

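The mRNAs of 10 regulators of the G1 phase were followed in SUM-225 cells after the addition of CP724,714. They were the D-type cyclins CCND1, CCND2 and CCND3, the E-type cyclins CCNE1 and CCNE2, the CIP/KIP inhibitors CDKN1A, CDKN1B and CDKN1C and the INK4 inhibitors CDKN2B and CDKN2C. Every probe carrying one of these gene symbols was taken, which gave 16 of the 24526 probes of the table. SUM-225 is a breast cancer cell line with HER2 amplification and over expression, and CP724,714 is a small molecule that blocks the kinase activity of HER2. Parallel cultures received the inhibitor at 1 µM, and 1 culture was taken for an Illumina bead array at 0 h and then every 3 h up to 45 h. All 16 cultures were of this single line and none was an untreated later time point. Each time point had 1 array, and time in culture was not separated from the inhibitor. The sources differ on the medium, which held serum, insulin and hydrocortisone by the labels and was free of serum, insulin and EGF by the study's methods for SUM-225 cultures. The methods given for the arrays of the study's other cell lines include a change of medium at the start of treatment.

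Progress through G1 depends on cyclins and the kinases they activate. The D-type cyclins respond to growth factors, bind CDK4 and CDK6 and begin the phosphorylation of the retinoblastoma protein. Phosphorylated retinoblastoma protein releases the E2F transcription factors, which drive the genes of S phase and the E-type cyclins, the partners of CDK2. INK4 proteins bind CDK4 and CDK6 alone, and CIP/KIP proteins bind complexes of cyclins and kinases. In HER2 amplified breast cells the receptor is known to feed the ERK and AKT pathways, which act on cyclin D1 and on p27, the product of CDKN1B.

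Values are normalized log2 signals, and differences are in log2 units with standard errors. Of the 16 probes, 12 had a detection p-value under 0.05 on at least 3 arrays and were tested, and they cover 9 of the 10 genes. CCND2 was detected on 0 of 16 arrays and has no measured course. In RefSeq (GRCh38.p14) CCND1 lies at chr11:69641156-69654474, CCNE1 at chr19:29811991-29824312, CDKN1A at chr6:36676463-36687332, CDKN1B at chr12:12717368-12722369, CDKN2B at chr9:22002903-22009313 and CDKN2C at chr1:50960745-50974634. The median array signal ranged from 242 to 384, and between 57.5% and 61.5% of the probes were detected on each array. The 8 luminal breast epithelial markers, among them ERBB2, KRT8, KRT18 and KRT19, were detected on all 16 arrays. Of these, ELF3 (1.85) and FOXA1 (0.34) rose and KRT8 (-0.68) and KRT18 (-0.74) fell in the linear change. Their summed signal was between 211609 and 305010. The fibroblast markers COL3A1, DCN and LUM and the leukocyte marker PTPRC were detected on none. The fibroblast markers COL1A1 and COL1A2 were each detected on 5 arrays, and neither passed the test. Among the leukocyte markers CD3D was detected on 1 array and LYZ and CD14 on 16, and CD14 rose (0.34, adjusted p = 0.0499 by limma). The summed signal of the 5 fibroblast markers was between 903 and 1220. The sum was between 646 and 1218 for the 3 endothelial markers. Of these, VWF, detected on 13 arrays, rose (2.51), and CDH5 was detected on 1. PECAM1, detected on all 16, went the other way without passing the threshold (-0.56, adjusted p = 0.0537 by limma). For the 4 basal epithelial markers the sum was between 2701 and 10335. KRT5 and ACTA2, detected on 16 arrays, fell, while KRT14 was detected on 3 and TP63 on 0. The part of these changes in the results below was not tested. In such pooled cells a lower mRNA level per cell and fewer expressing cells cannot be told apart.

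Over the whole course, 7 of the 12 tested probes changed with time when a cubic course was fitted with limma (58.3%, against 51.3% of all 16110 probes tested). A linear change passed the threshold for 9 probes (47.7% of all probes), which was a rise for 6 (50%, against 26% of all probes) and a fall for 3 (25%, against 21.7%). The remaining 3 were not past it. The course of 5 probes was curved (41.7%, against 19.3%). The median linear change was 0.40 for the 12 tested probes and 0.05 for all probes. The CDK inhibitors held 5 of the 6 rising probes, but they also held most of the tested probes. Among these 5 was the dimmer CDKN2B probe, detected on 6 arrays and on none up to 9 h, so its rise adds no support. The E-type cyclins had the largest falls, and the remaining fall was that of a dimmer CDKN2C probe, detected on 12 arrays. Among the 9 member probes detected on all 16 arrays, 5 rose and 2 fell. Of all probes so detected, 6812 had a linear change in either direction.

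**Figure D1:**
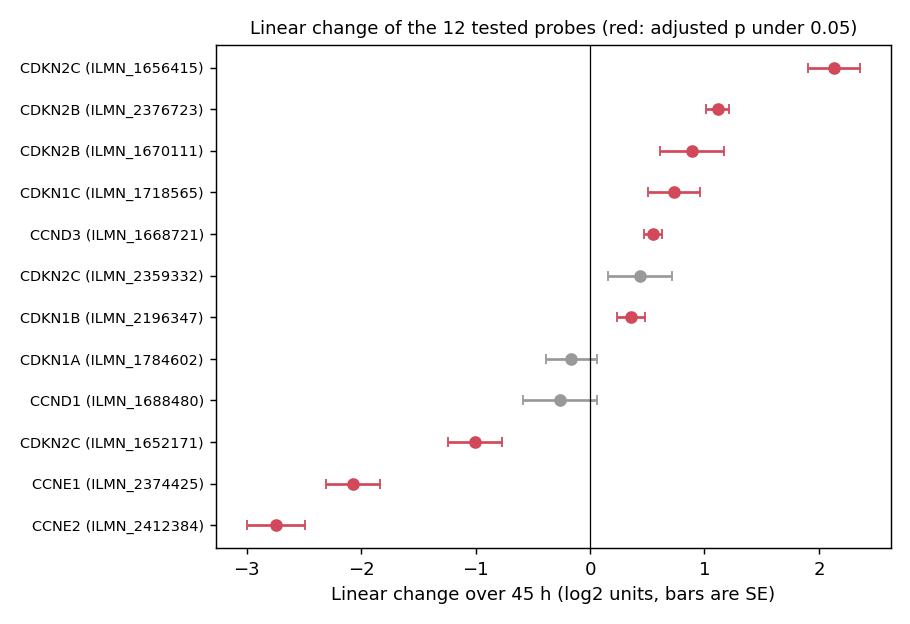
Linear change over 45 h (x axis, log2 units) of each of the 12 tested probes, with standard errors from the cubic fit over 16 arrays. CCNE2 and CCNE1 lie farthest to the left (-2.74 and -2.07), the brightest CDKN2C probe lies farthest to the right (2.13), and the dimmer CDKN2C probe ILMN_1652171 lies on the opposite side (-1.01).

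A cubic course cannot follow a change between neighbouring arrays, so the means of the windows 0 h (1 array), 3 to 9 h (3 arrays), 12 to 21 h, 24 to 33 h and 36 to 45 h (4 arrays each) were also compared by limma. These windows follow sets of arrays that stood apart in earlier results of these data. The labels name no batch, and at the steps from 9 to 12 h, 21 to 24 h and 33 to 36 h a processing difference and time cannot be told apart. From 0 h to the window of 3 to 9 h, 4 of the 12 probes differed (2.33% of all probes), of which 3 were higher (1.14% of all probes) and 1 lower (1.19% of all probes). Between that window and 12 to 21 h, 6 differed (27.7% of all probes), with 2 higher (14.8% of all probes) and 4 lower (12.9%). Between 12 to 21 h and 24 to 33 h, 2 differed (9.3% of all probes), both higher (5.2% of all probes) and 0 lower (4.11%). In the last comparison, 36 to 45 h against 24 to 33 h, 0 of the 12 passed the limma test at an adjusted p under 0.05, against 4.01% of all probes (0.9% higher and 3.11% lower). The nearest was CDKN1A (-0.39 ± 0.12, adjusted p = 0.0793). The single 0 h array was assumed to vary like the other windows. When arrays were weighted by their distance from the cubic course, the 0 h array had a weight of 0.297 and the 45 h array the lowest, 0.27. With these weights 0 of the 12 probes passed the threshold from 0 h to 3 to 9 h, against 33 of all probes. The differences were then -1.14 for CCND1, 0.65 for CDKN1B, 0.75 for CDKN1C and 1.76 for CDKN2C (adjusted p = 0.406 for CDKN2C and 1.00 for each of the others).

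**Figure D2:**
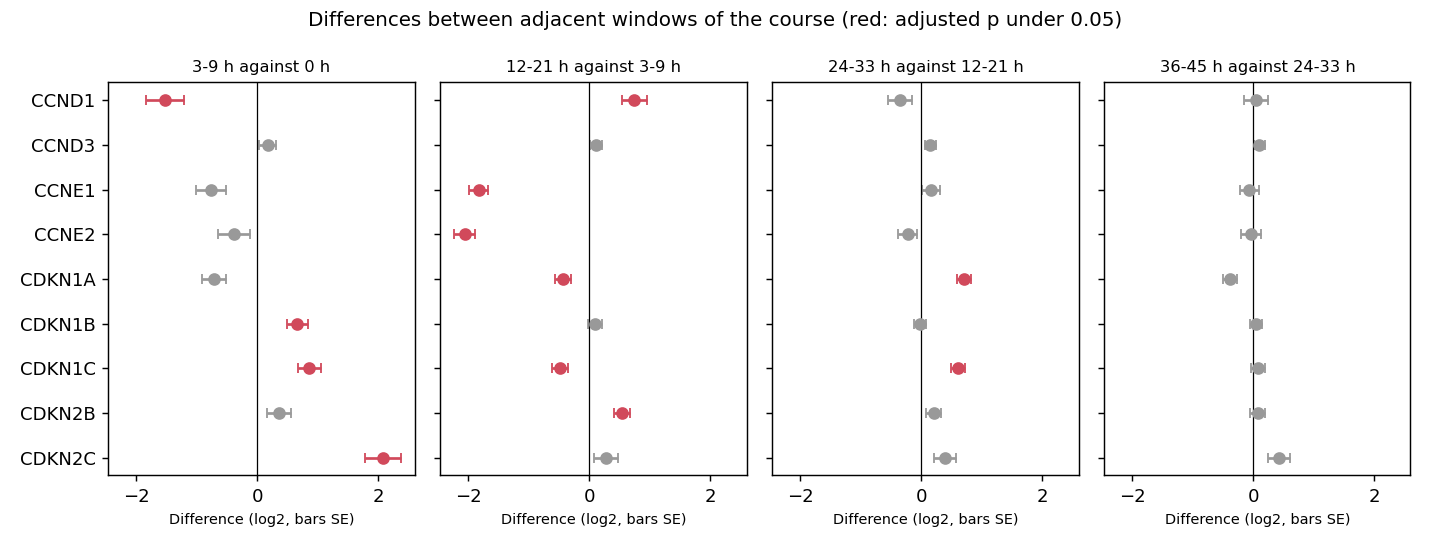
Differences between the means of adjacent windows (x axes, log2 units, later minus earlier, bars are standard errors) for the brightest probe of each of the 9 tested genes, with those past the threshold in red. In the left panel CCND1 lies at -1.52 and CDKN2C at 2.07. In the second panel CCNE1 and CCNE2 lie near -2 and CCND1 on the other side of 0, and in the right panel none is red.

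CCND1, which encodes cyclin D1, fell in the opening hours and then recovered in part. The log2 values at 0, 3, 6 and 9 h were 14.84, 14.17, 13.04 and 12.73. It returned to 14.25 at 12 h and 14.28 at 15 h, and passed through 13.92 at 18 h and 13.80 at 21 h. From 24 to 45 h it stayed between 13.62 and 13.86. The arrays at 6 and 9 h were thus the lowest of the course and the 0 h array the highest, a range of 4.30-fold, and no later array came back to the 0 h value. Against 0 h, the mean of 3 to 9 h differed by -1.52 ± 0.32 (SE, adjusted p = 0.0129), with all 3 arrays lower. Without the 6 h array this difference was -1.38 (adjusted p = 0.0562). The mean of 12 to 21 h was 0.75 ± 0.21 above that of 3 to 9 h (adjusted p = 0.0124), although the 3 h array lay within the range of the later window. This call was lost without the 6 h array (0.61, adjusted p = 0.0822) and without the 9 h array (0.46, adjusted p = 0.0864), and the difference was 1.17 without the 3 h array and 0.35 with array weights (adjusted p = 0.187). The cubic course of CCND1 was not past the threshold for time dependence (adjusted p = 0.483), and its linear change was -0.26 ± 0.33 (adjusted p = 0.542). The change of -2.10 from 0 to 9 h lay within the opening set of 4 arrays, and a change of 1.52 lay at the step from 9 to 12 h.

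CCND3, which encodes cyclin D3, had another course. It was 14.33 at 0 h and 14.30 at 3 h, then between 14.58 and 14.65 from 6 to 21 h, between 14.66 and 14.82 from 24 to 42 h, and 15.22 at 45 h. The last array was the highest and the one at 3 h the lowest, which spans 1.88-fold. The linear change was 0.55 ± 0.08 over 45 h (adjusted p = 7.6e-06) and 0.44 without the 45 h array. Neither of the arrays at 6 and 9 h, where CCND1 was lowest, was below 0 h for CCND3. The single CCND2 probe, for cyclin D2, had signals between 154 and 218, within background on all 16 arrays.

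CCNE1, which encodes cyclin E1, fell by 12 h and stayed low. The leading probe had log2 values of 11.62, 11.28, 10.89 and 10.37 at 0, 3, 6 and 9 h. It was at its lowest, 8.78, at 12 h, and the 11 later arrays lay between 8.93 and 9.36. The 4 arrays up to 9 h were all above the 12 arrays from 12 h on. The range was 7.15-fold. From 3 to 9 h to the window of 12 to 21 h the mean changed by -1.83 ± 0.17 (SE, adjusted p = 2.51e-07), and the linear change was -2.07 ± 0.24 (adjusted p = 6.28e-07). The earlier difference between 0 h and 3 to 9 h was -0.77 ± 0.25 and did not pass the threshold (adjusted p = 0.118), except without the 3 h array (-0.99, adjusted p = 0.0059). A change of -1.25 from 0 to 9 h lay within the opening set of arrays, and a further -1.59 lay at the step from 9 to 12 h. The second CCNE1 probe was detected on the arrays at 0 and 3 h and on no others, and was not tested. Its signals were 282 and 224 there and between 175 and 237 on the 14 later arrays.

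CCNE2, which encodes cyclin E2, fell in the same comparison. At 0, 3, 6 and 9 h its values were 12.15, 12.21, 11.88 and 11.17. From 12 to 21 h it lay between 9.65 and 9.77, from 24 to 33 h between 9.23 and 9.68, and it ended at 9.22 at 45 h. The 4 arrays up to 9 h again lay above all later ones, and the range was 7.99-fold. Between 3 to 9 h and 12 to 21 h the change was -2.06 ± 0.17 (adjusted p = 1.09e-07), and the linear change of -2.74 ± 0.25 (adjusted p = 4.17e-08) was the largest fall among the 12 tested probes. Before that, 3 to 9 h differed from 0 h by -0.39 ± 0.26, which did not pass the threshold (adjusted p = 0.503). The change was -0.97 within the opening set and -1.49 at the step from 9 to 12 h. A second CCNE2 probe, with signals between 148 and 223, was detected on 0 of 16 arrays.

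**Figure D3:**
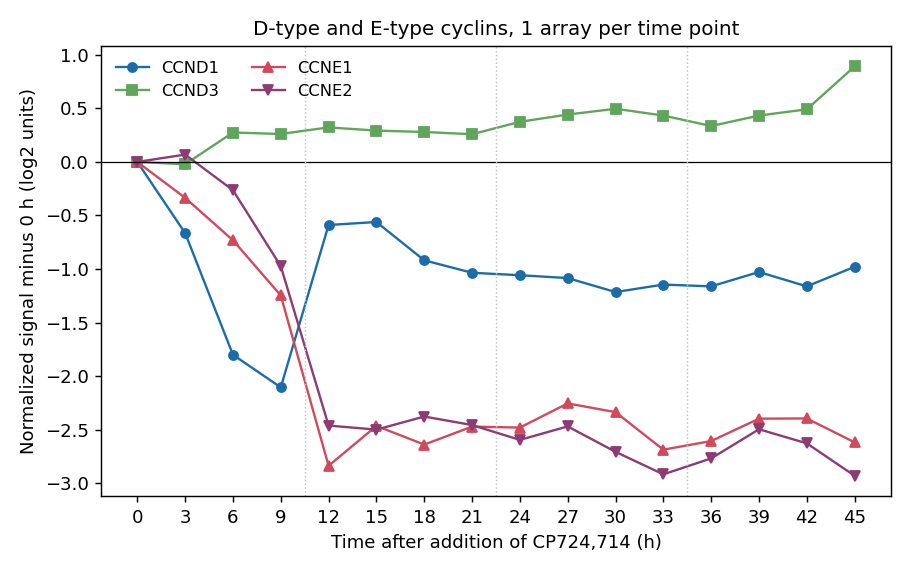
Normalized log2 signal minus that at 0 h (y axis, log2 units) against time in hours for CCND1, CCND3 and the leading probes of CCNE1 and CCNE2, 1 array per point. Dotted lines divide the sets of 4 arrays. CCND1 dips by 2.10 at 9 h and recovers in part at 12 h, when CCNE1 and CCNE2 drop to a low level that they keep.

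The genes whose courses lay closest to CCNE2 were MCM6, CHAF1B, LHX2, MCM2 and MCM5. Their centred courses differed from that of CCNE2 by a root-mean-square of 0.14, 0.19, 0.23, 0.26 and 0.26 log2 units over the 16 arrays, against a median of 1.07 for the 12343 probes compared. MCM2, MCM5 and MCM6 encode subunits of the replicative helicase, and CHAF1B a subunit of a factor that assembles chromatin behind replication forks. In a list of 18 E2F target genes of S phase, 17 fell in the linear fit (21.7% of all probes), 0 rose (26% of all probes) and 1, MYBL2, was not past the threshold. Their median linear change was -2.30. Between 3 to 9 h and 12 to 21 h, 17 of the 18 were lower (12.9% of all probes), with a median of -1.58 against 0.04 over all probes. RRM2, a subunit of ribonucleotide reductase, had the largest linear fall of the list (-4.36 ± 0.40).

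The sequence before the CCNE1 start site is shown because CCNE1 is the falling cyclin among the member genes searched in the promoter table of RefSeq (GRCh38.p14). CCNE2, the other E-type cyclin, was left out of that search. It lies on the plus strand at chr19:29811741-29811990, the 250 bases before the annotated start of the gene at 29811991. Capitals mark GGGCGG, the GC box bound by SP1-type factors, on either strand, with overlapping matches counted separately.

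CCNE1: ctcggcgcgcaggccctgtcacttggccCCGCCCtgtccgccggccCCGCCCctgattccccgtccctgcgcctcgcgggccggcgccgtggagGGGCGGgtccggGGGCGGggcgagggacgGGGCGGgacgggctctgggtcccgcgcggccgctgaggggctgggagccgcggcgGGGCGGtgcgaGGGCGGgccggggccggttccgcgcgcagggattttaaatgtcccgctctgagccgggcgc

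There were 7 matches in this window, and 42.6% of the 35116 windows of the table hold at least 1. The G and C content was 81.2%, against a median of 58.0%. The E2F words TTTCCCGC, TTTGGCGC, TTTCGCGC and TTTGCCGC, searched on both strands, were not in these letters, and 2.79% of all windows hold one. They were in 0 of the 10 windows of the 6 member genes searched, which were CCND3, CCNE1, CDKN1A, CDKN1B, CDKN2B and CDKN2C. CCNE2 was not searched, while the share over all windows left out no chromosome.

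Among the CIP/KIP inhibitors, CDKN1B, which encodes p27, was higher at 3 to 9 h than at 0 h. It had log2 values of 10.68, 11.32, 11.11 and 11.59 at 0, 3, 6 and 9 h. All later arrays lay between 11.25 and 11.64. The 0 h array was thus below each of the 15 others, and the range was 1.95-fold. Against 0 h, 3 to 9 h was higher by 0.66 ± 0.17 (adjusted p = 0.0456). This call was close to the threshold and was lost in 10 of the 15 fits that left out another array, with adjusted p between 0.0201 and 0.115. The smallest difference among them was 0.54, without the 9 h array. The differences between the later windows were 0.09, -0.02 and 0.05 and were not past the threshold. The linear change was 0.36 ± 0.12 (adjusted p = 0.022) and 0.14 without the 0 h array (adjusted p = 0.398).

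CDKN1C, which encodes p57, rose, fell back and rose again. The values at 0, 3, 6 and 9 h were 7.86, 8.47, 8.91 and 8.80. From 12 to 21 h it lay between 8.10 and 8.40, and from 24 to 45 h between 8.72 and 9.15. The arrays of 12 to 21 h were below every array of the windows on either side. The window of 3 to 9 h was 0.86 ± 0.19 above 0 h (adjusted p = 0.0211). The change to 12 to 21 h was -0.48 ± 0.13 (adjusted p = 0.00799), and that to 24 to 33 h was 0.61 ± 0.12 (adjusted p = 0.0023). Without the 6 h array the opening rise was 0.77 (adjusted p = 0.0738) and the fall that followed was -0.39 (adjusted p = 0.0588). Without background correction the opening rise was 0.55 (adjusted p = 0.0285). The linear change was 0.73 ± 0.23 (adjusted p = 0.0116), while the cubic course as a whole was not past the threshold for time dependence (adjusted p = 0.0657). The CDKN1C signal lay between 381 and 974, and the turns of its course lay partly at the steps from 9 to 12 h (-0.56) and from 21 to 24 h (0.62).

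CDKN1A, which encodes p21, a target of p53, fell from 3 to 9 h to 12 to 21 h and rose again at 24 to 33 h. It was highest at 0 h (12.61) and had values of 11.84, 11.79 and 12.07 at 3, 6 and 9 h. It declined from 11.71 at 12 h to 11.29 at 21 h, its lowest value, and stood at 12.49 at 24 h. It then lay at 12.07, 12.22 and 11.91 up to 33 h and between 11.68 and 11.91 from 36 h on. No array came back to the value at 0 h, the array at 24 h was the nearest to it, and the range was 2.51-fold. The difference of 3 to 9 h from 0 h was -0.71 ± 0.19, with all 3 arrays lower, at an adjusted p of 0.0567. Leaving out single arrays moved that p between 0.0354 and 0.162, and it was 0.0167 with median scaling and 0.0328 with cyclic loess. The change to 12 to 21 h was a further -0.44 ± 0.13 (adjusted p = 0.0149). That call was lost without the array at 9 h (adjusted p = 0.0643), at 18 h (0.0514) or at 21 h (0.0514). The mean of 24 to 33 h was 0.71 ± 0.12 above that of 12 to 21 h (adjusted p = 0.000605), and the 4 arrays of each window did not overlap. This rise kept an adjusted p of at most 0.00359 when any array was left out, and a step of 1.20 lay between 21 and 24 h. The cubic course was not past the threshold (adjusted p = 0.0979), and the linear change was -0.16 ± 0.22 (adjusted p = 0.582). A second CDKN1A probe, with signals between 195 and 283, was detected on 0 arrays.

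Of 18 p53 target genes, 17 were tested, of which 5 rose (26% of all probes), 1 fell (21.7% of all probes) and 11 were not past the threshold in the linear change, with a median of 0.26 against 0.05 over all probes. MDM2 was detected on 0 arrays. TP53INP1, which promotes cell death and arrest, rose most (1.50 ± 0.13), and FAS, a death receptor, fell (-1.95 ± 0.23). The FAS probe was dim, with a mean log2 value of 6.10, and was detected on 8 arrays. Of the 17 genes, 5 were higher (5.2% of all probes) and 0 lower (4.11% of all probes) at 24 to 33 h than at 12 to 21 h. A list of genes that AKT is known to restrain through FOXO factors, as it does CDKN1B, had 15 tested genes, and it shares SESN1 with the p53 list. Of these, 12 rose (26% of all probes), 0 fell (21.7% of all probes) and 3 were not past the threshold, with a median of 0.90. From 0 h to 3 to 9 h, 8 of the 15 were higher (1.14% of all probes) and 0 lower (1.19% of all probes), with a median of 0.81 against 0.01 over all probes. With array weights, 33 of all probes differed in this comparison. PDK4, a kinase that inhibits pyruvate dehydrogenase, rose most (1.26 ± 0.27).

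CDKN2C, which encodes p18, had the largest linear rise among the inhibitors. The leading probe had log2 values of 8.25, 9.63, 10.51 and 10.82 at 0, 3, 6 and 9 h. It was 10.42 at 12 h and 10.36 at 15 h, then lay at 10.73 and 10.91 at 18 and 21 h, between 10.76 and 11.10 from 24 to 33 h and between 11.32 and 11.57 from 36 h on. The 0 h array was the lowest, and the 45 h array, the highest, lay 3.32 log2 units above it. At 3 to 9 h the mean was 2.07 ± 0.30 (SE) above 0 h (adjusted p = 0.000461), with all 3 arrays higher. Leaving out each of the 15 arrays other than that at 0 h left this difference between 1.82 and 2.42 with adjusted p of at most 0.00266. These fits all keep the single 0 h array and cannot test how far the difference rests on it. With array weights the difference was 1.76 (adjusted p = 0.406 by limma). The linear change was 2.13 ± 0.23 (adjusted p = 2.45e-07) and was 1.53 without the 0 h array. The last array of each set minus its first was 2.57 for 0 to 9 h and 0.49, 0.34 and 0.25 for the later sets, above 0 in all 4. The steps between sets were -0.40, -0.15 and 0.21.

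The other CDKN2C probes did not show this linear rise. ILMN_1652171, detected on 12 arrays with signals between 204 and 334, had a linear change of -1.01 ± 0.24 (adjusted p = 0.00169), and without background correction this was -0.34. It was not detected at 33, 36, 39 and 45 h, so its values there lay within background. At 3 to 9 h it was 0.33 ± 0.34 above 0 h (adjusted p = 0.683 by limma), the direction of the leading probe. For ILMN_2359332, found above background on 5 arrays, the linear change was 0.44 ± 0.28 (adjusted p = 0.213). The sequences of the probes were not used here, and the transcripts they match were not compared. RefSeq gives CDKN2C 3 start sites in its promoter table, and the windows before a pair of them are shown because the probes of this gene differed. Both are on the plus strand (GRCh38.p14), at chr1:50960495-50960744 and chr1:50968456-50968705, each the 250 bases before a start site, and capitals mark GGGCGG on either strand.

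CDKN2C upstream start: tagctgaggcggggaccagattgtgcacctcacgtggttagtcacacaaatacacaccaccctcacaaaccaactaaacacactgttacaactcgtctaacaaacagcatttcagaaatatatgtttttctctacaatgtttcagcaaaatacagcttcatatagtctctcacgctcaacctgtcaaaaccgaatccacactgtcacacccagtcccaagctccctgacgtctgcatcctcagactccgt

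CDKN2C next start: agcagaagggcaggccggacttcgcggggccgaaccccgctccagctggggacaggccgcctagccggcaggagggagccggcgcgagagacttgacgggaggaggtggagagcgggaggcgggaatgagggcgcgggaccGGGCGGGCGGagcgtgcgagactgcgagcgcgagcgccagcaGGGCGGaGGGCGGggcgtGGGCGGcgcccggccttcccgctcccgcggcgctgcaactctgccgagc

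The window of the upstream start held 0 GC boxes at a G and C content of 45.6%, and that of the next start held 5 at 77.2%. The FOXO word GTAAACA (in 2.98% of all windows), the CRE word TGACGTCA (1.65%) and the AP-1 words TGACTCA and TGAGTCA (4.2%) were searched on both strands. They were in 0 of the 10 windows of the 6 member genes searched, which leave out CCNE2.

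CDKN2B, which encodes p15, rose over the course. The leading probe stood at 11.01, 10.92, 11.46 and 11.73 at 0, 3, 6 and 9 h. It was between 11.78 and 12.07 from 12 to 21 h, between 11.99 and 12.20 from 24 to 33 h and between 12.10 and 12.26 from 36 h on. The arrays at 0 and 3 h were below all others, and the range was 2.54-fold. The difference between 3 to 9 h and 0 h was 0.36 ± 0.20, which did not pass the threshold (adjusted p = 0.389). The mean of 12 to 21 h was a further 0.54 ± 0.13 higher (adjusted p = 0.00482), or 0.31 without the 3 h array (adjusted p = 0.0304). The linear change was 1.12 ± 0.10 (adjusted p = 2.34e-08), between 0.95 and 1.26 with any array left out. The dimmer CDKN2B probe was detected on 6 arrays, at 12, 21, 33, 36, 39 and 42 h, and on none up to 9 h. It thus passed the filter only through later arrays, and its change adds no support to that of the leading probe. Its linear change was 0.89 ± 0.28 (adjusted p = 0.0125), or 0.32 without background correction and 0.56 with an offset of 50. Its cubic course was not past the threshold for time dependence (adjusted p = 0.0684).

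**Figure D4:**
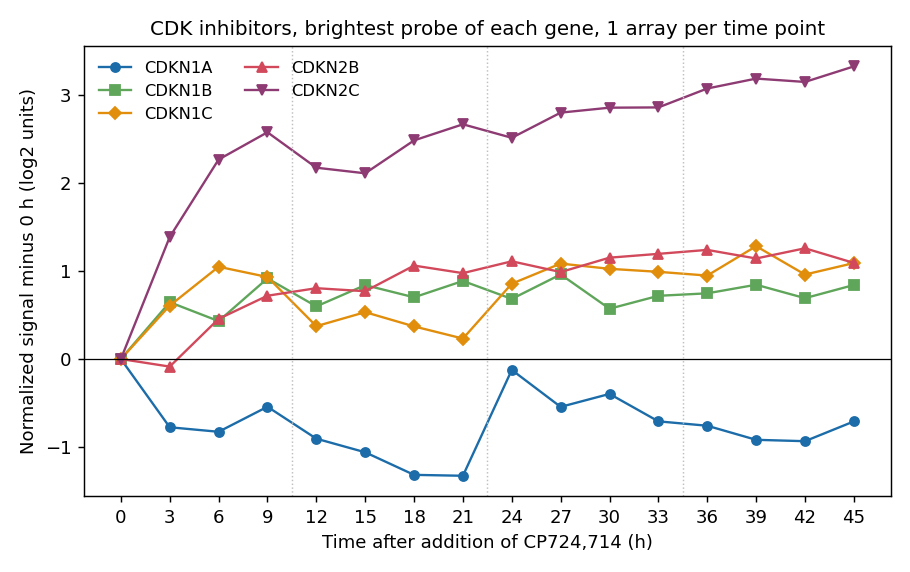
Normalized log2 signal minus that at 0 h (y axis, log2 units) against time in hours for the brightest probe of each CDK inhibitor, 1 array per point, with dotted lines between sets of 4 arrays. CDKN2C stands 2.57 above its 0 h value at 9 h and 3.32 above it at 45 h, while CDKN1A is below its 0 h value on all later arrays.

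The genes whose courses lay closest to the leading CDKN2C probe were MGC17330, PELI2, CCDC28A, GPR12 and ELF3, with root-mean-square differences of 0.22, 0.23, 0.23, 0.23 and 0.24 log2 units over 16 arrays, against a median of 0.80. ELF3 encodes an epithelial transcription factor and PELI2 an E3 ubiquitin ligase.

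The partners of these proteins were measured on the same arrays. Of 28 further genes of the G1 to S machinery, all tested, 5 rose (26% of all probes), 14 fell (21.7% of all probes) and 9 were not past the threshold in the linear change, with a median of -0.36. CDK4, a partner of the D-type cyclins, changed by -1.11 ± 0.09 (adjusted p = 1.47e-08), while CDK6 changed by 0.24 ± 0.12 (adjusted p = 0.0949). CDK2, the partner of the E-type cyclins, changed by -1.61 ± 0.17 (adjusted p = 2.18e-07), and CDC25A, the phosphatase that activates it, by -2.40 ± 0.16. SKP2 and CKS1B, which direct p27 to degradation, changed by -0.92 ± 0.14 (adjusted p = 1.38e-05) and -1.68 ± 0.09 (adjusted p = 4.11e-11). In the same list SKP1A changed by 0.22 ± 0.07 (adjusted p = 0.0155 by limma) and CUL1 by -0.06 ± 0.10 (adjusted p = 0.676 by limma). RBX1 changed by -0.32 ± 0.06 (adjusted p = 0.000143 by limma). CCNA2, the S phase cyclin A2, fell most (-3.19 ± 0.26), and RBL2, a relative of the retinoblastoma protein that the FOXO list also holds, rose most (0.93 ± 0.08). RB1 itself changed by -0.30 ± 0.14 (adjusted p = 0.0941). The INK4 relatives CDKN2A (-0.37 ± 0.19, adjusted p = 0.117) and CDKN2D (-0.25 ± 0.17, adjusted p = 0.243) were not past the threshold.

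With the set of 4 arrays as a factor, which leaves the changes within 9 h, 0 of the 12 probes passed the threshold in the linear change, against 145 of all 16110 probes. Of the 9 probes with a linear trend, 8 kept the sign of their estimate, but the share over all probes was not computed. The count adds no support, and it includes the dimmer CDKN2B probe (0.17, adjusted p = 0.966 by limma). The last array of each set minus its first was -1.25, 0.37, -0.21 and -0.01 for CCNE1. For CCNE2 it was -0.97, 0.005, -0.32 and -0.16. The leading CDKN2C probe had the lowest adjusted p of the 12 there (4.60 over 45 h, adjusted p = 0.088), and the estimates of CCNE1 and CCNE2 were -1.48 (adjusted p = 0.429) and -1.85 (adjusted p = 0.21). The dimmer CDKN2C probe ILMN_1652171 changed sign (0.50, adjusted p = 0.871).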

How the data were processed

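SUM-225 cells under 1 µM CP724,714 were sampled at 16 time points, with 1 Illumina array each, grouped by the time in the labels. The deposited table holds a linear signal intensity per probe and array, which the authors had neither background-corrected nor normalized, and a deposited detection p-value. The genome build and scanning software were not given in the sources used here. Signals were corrected with normexp, using negative controls inferred from the detection p-values, with an offset of 16 that shrinks changes of dim probes, then quantile normalized and log2 transformed (neqc, limma 3.58.1, R 4.3.3). A probe entered the tests where its detection p was under 0.05 on 3 or more arrays. A cubic course in hours and a fit of 5 windows were made with limma (eBayes with an intensity trend), two-sided, with Benjamini-Hochberg adjustment over 16110 probes at 0.05. Both were tested on simulated data. No time point had a replicate, so errors are deviations around the fitted course or window, which include true change within it. The number of arrays limits precision.

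The members and lists were chosen with earlier results of these data known. All member probes are described, the brightest first. The neighbours of a course were the 5 genes with the smallest root-mean-square difference, for the largest rise and fall. Of each list the largest rise and fall are named. Other list genes were named after their values were seen. Promoter windows were the 250 bases before RefSeq starts (GRCh38.p14). Those of members on chromosome 8, which holds CCNE2, were left out. Alternatives covered background, offset, scaling, filters, array weights, other courses, the set of arrays and each array left out. Figures used matplotlib 3.10.9. The summed signal of the leukocyte markers is not reported here.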

Additional observations from a re-analysis of the deposited data

How the results depend on the processing

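No paired analysis was possible because no hour was sampled more than once. With the set of 4 arrays as a factor, time dependence and linear change were the same test of a single coefficient. It passed for 145 of all probes and for 0 member probes in either direction, and ILMN_1652171 of CDKN2C reversed (0.50). Array weights gave the 0 h array 0.297 and the 45 h array 0.27, the lowest of all. With them the calls over all probes were 33 at 3 to 9 h, 2280 at 24 to 33 h and 1021 at 36 to 45 h. The member probes called were 0 at 3 to 9 h and 1 at 36 to 45 h. With median scaling, 1 member probe differed at 36 to 45 h (CDKN1A, -0.42, adjusted p = 0.046). Leaving out each array in turn gave these ranges. At 3 to 9 h, 183 (without 6 h) to 1788 probes (without 3 h) differed from 0 h, with 2 (without 6 h) to 7 members (without 3 h). At 24 to 33 h, 942 (without 30 h) to 1969 probes (without 45 h) differed, with 2 to 4 members (without 3 h), and at 36 to 45 h, 397 (without 24 h) to 808 probes (without 3 h), with 0 to 1 member (without 3 h or 33 h). Curved member courses numbered 3 (without 0 h) to 6 (without 24 h). The linear change of CCND1 ran from -0.52 (without 9 h) to 0.13 (without 0 h) and that of CDKN1A from -0.21 (without 45 h) to 0.12 (without 0 h). The linear changes of CCND3, CCNE1, CCNE2, CDKN2B and the leading CDKN2C probe and the falls of CCNE1 and CCNE2 to 12 to 21 h kept their calls with each array left out. The early rise of CDKN2C kept its call in 15 such fits, since the 0 h array cannot be left out there. The causes of the other shifts were not tested. CDKN1B lost its linear call with array weights (0.21, adjusted p = 0.157) and with a straight line alone (adjusted p = 0.0766), and its early rise missed the threshold with median scaling (0.58, adjusted p = 0.0856) and without a filter (adjusted p = 0.0525). Over all other scalings the median linear change of all probes stayed between 0.0027 and 0.042, against 0.050 here.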
